A study of Mus musculus with 4 samples.

Results

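The P4-type ATPases are lipid flippases, and the data describe 10 listed genes of this family in mouse CD4+CD8+ double-positive thymocytes: Atp8b4, Atp8a1, Atp8b1, Atp8b2, Atp9a, Atp9b, Atp10a, Atp11a, Atp11b and the subunit gene Tmem30a. Every probe set whose only gene symbol in the platform annotation was one of these names was taken. This gave 25 probe sets of 9 genes, out of 28898 singly named probe sets of 17097 genes. Tmem30a had 0 such probe sets, so its signal was not analysed here. The family was selected on the difference of Atp8b4 between the labels, which ranked 7 of 17097 genes for an increase. That difference is therefore given as a description without a test. The other members were listed by family, with results of the same contrast known, so their counts are also descriptive.

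The arrays came from 2 groups of 2 samples, all sorted by flow cytometry from the thymus of C57BL/6 mice. One group was titled hCD2-iCre x Gfi1fl/fl, written below as labelled Gfi1fl/fl: mice with a floxed Gfi1 gene and a Cre recombinase under human CD2 control, which is active in the lymphoid lineage and not in double-positive cells alone. The other was titled WT, and its titles name neither the recombinase nor the floxed gene, so effects of the recombinase and of the floxed gene cannot be told apart. Ages, and whether replicates came from separate animals, are not stated, so it is not known whether the errors include a spread between animals. The printed SE are those of limma. They combine the spread between these samples with that of other probe sets of like signal, and can be larger or smaller than the spread of the values shown.

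A flippase uses ATP to move phospholipids from the outer to the inner leaflet of a membrane, and so keeps phosphatidylserine on the cytosolic side. Loss of that asymmetry exposes phosphatidylserine, a signal by which phagocytes take up dying cells, including the many thymocytes that fail selection. Most P4-ATPases need a CDC50 subunit, chiefly the product of Tmem30a, to leave the endoplasmic reticulum; the products of Atp9a and Atp9b do not.

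Values are log2 signals of robust multi-array averaging (RMA), and the median over all probe sets lay between 3.53 and 3.55 on the 4 arrays. The probe set of Gfi1, the targeted gene, read 11.47 and 11.32 on the arrays labelled Gfi1fl/fl, against 10.17 and 10.08 on the WT arrays. The signal was thus higher under the label of the floxed gene (1.27 ± 0.14 SE, limma, adjusted p = 0.00781, and 0.0501 without WT replicate 2). Whether this probe set lies inside the floxed part is not given in the sources used here, so every direction below is one between labels. Foxo1, named with Gfi1 in the series title, read 2.99 and 2.91 on the arrays labelled Gfi1fl/fl, against 3.02 and 3.15 on the WT arrays, all below the array medians. This was its only singly named probe set, and at such a signal the expression of Foxo1 cannot be judged from it. The markers of the sort were present in both groups. Cd4 read 8.51 and 8.24 on the arrays labelled Gfi1fl/fl, against 8.56 and 8.66 on the WT arrays, and Cd8a read 12.61 and 12.56 against 12.48 and 12.78. Rag1, the recombinase gene of this stage, read 12.54 and 12.55 against 12.54 and 12.66.

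Atp8b4 had the largest difference between the labels of the 9 measured genes, as its selection fixed. It encodes a P4-ATPase related to the products of Atp8b1 and Atp8b2. Its brighter probe set read 8.99 and 9.11 on the arrays labelled Gfi1fl/fl, against 3.31 and 3.92 on the WT arrays. The WT values lay on either side of the array medians, the other pair lay far above them, and the groups did not overlap. The difference was 5.43 ± 0.29 (SE, n = 2 each) on the log2 scale, a 43.2-fold ratio of signals. With the WT signals near the median of all probe sets, this is a ratio of signals and not of transcript amounts.

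The second Atp8b4 probe set gave the same direction at a lower signal. It read 4.59 and 4.36 on the arrays labelled Gfi1fl/fl, against 2.90 and 2.40 on the WT arrays. The WT values lay below the array medians and the others above them, so this probe set also separated the groups. Its difference was 1.82 ± 0.20 (SE), a 3.54-fold ratio. The mean of the 2 probe sets differed by 3.63, and leaving out any 1 array kept the brighter probe set between 5.13 and 5.74.

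The promoters annotated by RefSeq (GRCm38.p6) are shown for 3 members: Atp8b4, the gene with the large difference, Atp8b2, the member with the next largest increase in signal, and Atp8a1, whose brightest probe set differed least. Each window runs from 250 bases before to 50 bases after an annotated transcript start, on the strand of the gene, and for Atp8b4 and Atp8a1 this start is not the outermost one of the gene. They lie on the minus strand at chr2:126491504-126491803 for Atp8b4, chr3:89963289-89963588 for Atp8b2 and chr5:67847382-67847681 for Atp8a1. Capitals mark AATC or its reverse complement GATT, the core that Gfi1 binds.
Atp8b4: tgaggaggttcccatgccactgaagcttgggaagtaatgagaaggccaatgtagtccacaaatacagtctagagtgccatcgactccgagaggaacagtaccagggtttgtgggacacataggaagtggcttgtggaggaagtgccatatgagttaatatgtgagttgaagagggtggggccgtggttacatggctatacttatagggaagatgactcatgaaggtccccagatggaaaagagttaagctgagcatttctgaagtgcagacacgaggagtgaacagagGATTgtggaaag
Atp8b2: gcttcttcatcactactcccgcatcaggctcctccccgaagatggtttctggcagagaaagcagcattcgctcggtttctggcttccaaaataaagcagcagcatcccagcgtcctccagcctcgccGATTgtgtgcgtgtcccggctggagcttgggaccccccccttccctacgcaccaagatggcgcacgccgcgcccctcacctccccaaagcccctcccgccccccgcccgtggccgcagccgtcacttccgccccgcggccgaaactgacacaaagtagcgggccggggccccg
Atp8a1: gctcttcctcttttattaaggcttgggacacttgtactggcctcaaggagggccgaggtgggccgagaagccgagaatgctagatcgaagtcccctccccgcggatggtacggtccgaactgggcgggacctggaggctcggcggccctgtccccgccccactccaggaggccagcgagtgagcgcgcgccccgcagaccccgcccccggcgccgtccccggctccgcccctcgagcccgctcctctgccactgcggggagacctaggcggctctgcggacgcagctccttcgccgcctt
The Atp8b4 window holds 1 match, starting at base 289, and has 48.0% G and C. The Atp8b2 window shown holds 1, starting at base 128, with 66.0% G and C, and the Atp8a1 window holds 0, with 70.3%. A second annotated window of Atp8b2, not shown, holds 0.

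AATC on either strand was found in 7 of 12 windows annotated for 8 members, against 73.1% of all 32851 mouse windows of this length. These members include Tmem30a, Atp8b1 and Atp9b had no window, and some members, such as Atp9a, had several. A longer stretch of the Gfi1 site, AATCAC on either strand, which contains AATC, was in 0 of the 12 and in 10.4% of all windows. The forkhead motif GTAAACA, searched on both strands because the series title names Foxo1, was in 0 of the 12 and in 3.65% of all windows. These counts describe the letters in these windows alone.

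**Figure D1:**
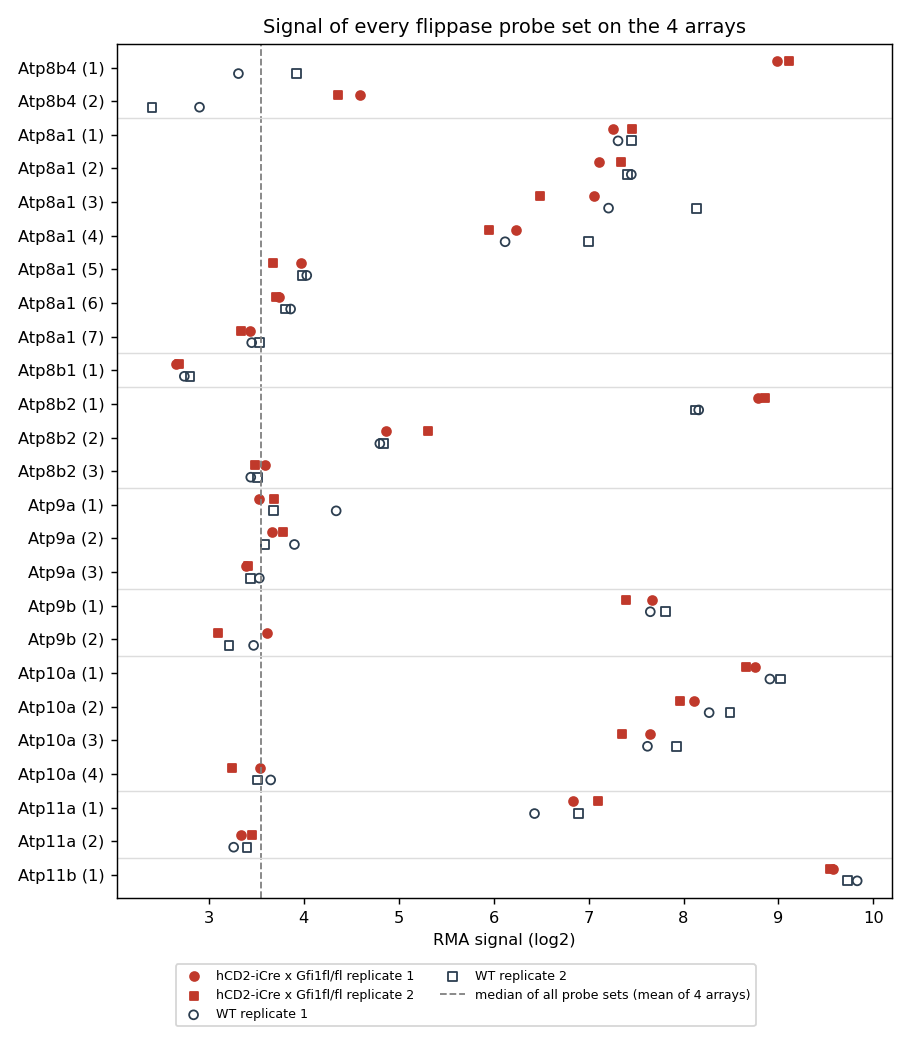
Each row is 1 flippase probe set, numbered by brightness within its gene, and the x axis gives its RMA signal (log2) on each array; filled symbols are arrays labelled Gfi1fl/fl, open symbols WT arrays, and the dashed line is the median of all probe sets. The 2 Atp8b4 probe sets separate the labels (8.99 and 9.11 against 3.31 and 3.92 for the brighter), while in the other rows the means of the labels differ by at most 0.90.

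The other Atp8b genes had smaller differences. Atp8b2, whose human product moves phosphatidylcholine, had 8.78 and 8.86 on the arrays labelled Gfi1fl/fl, against 8.16 and 8.13 on the WT arrays by its brightest probe set. The groups did not overlap and the difference was 0.67 ± 0.20 (SE), or 1.60-fold. It was not called (limma, adjusted p = 0.363 over all probe sets and 0.257 over genes), and over all alternatives the adjusted p for the gene lay between 0.126 and 0.756.

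A further pair of Atp8b2 probe sets differed less. One read 4.86 and 5.31 on the arrays labelled Gfi1fl/fl, against 4.80 and 4.84 on the WT arrays, a difference of 0.27 ± 0.25 (SE). The other, at the array medians, differed by 0.06 ± 0.14, so the mean of the 3 probe sets differed by 0.33 in place of 0.67.

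Atp8b1 is the gene mutated in a human familial intrahepatic cholestasis. Its only probe set read 2.65 and 2.68 on the arrays labelled Gfi1fl/fl, against 2.74 and 2.80 on the WT arrays. All 4 values lay below the lower quartiles of the arrays, which were between 2.97 and 3.02, and at such a signal a lower level was not detectable. The difference was -0.11 ± 0.07 (SE).

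Atp8a1, which encodes a flippase of phosphatidylserine, was read by 7 probe sets, all with a difference below 0. The brightest had 7.26 and 7.46 on the arrays labelled Gfi1fl/fl, against 7.31 and 7.45 on the WT arrays. These values interleaved, and the difference was -0.02 ± 0.23 (SE). The third brightest read 7.06 and 6.49 on the arrays labelled Gfi1fl/fl, against 7.21 and 8.14 on the WT arrays, a difference of -0.90 ± 0.37. Without WT replicate 2 that difference was -0.44, so a large part of it came from 1 array. The fourth, in which the groups overlapped, differed by -0.47 ± 0.34, and by -0.03 without WT replicate 2. The second differed by -0.21 ± 0.23, and the 3 dimmest, at signals between 3.34 and 4.03, by -0.18, -0.11 and -0.11. The groups did not overlap for 5 of the 7 probe sets, all with the lower values under the label Gfi1fl/fl, as for 17.9% of all probe sets; another 16.8% of all did not overlap with higher values there. The probe sets of this gene thus gave different sizes, and their mean differed by -0.29. None was called (limma, adjusted p between 0.623 and 1.00, with 1 of 7 at an unadjusted p under 0.05).

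Atp10a encodes a flippase whose human product moves phosphatidylcholine at the plasma membrane. The brightest of 4 probe sets read 8.75 and 8.66 on the arrays labelled Gfi1fl/fl, against 8.91 and 9.02 on the WT arrays. Differences were -0.27 ± 0.19, -0.35 ± 0.22, -0.28 ± 0.25 and -0.19 ± 0.16 (SE) in the order of brightness. All 4 lay below 0 and none was called (limma, adjusted p between 0.837 and 0.930; 0 at an unadjusted p under 0.05). Of these probe sets, 3 have names that the manufacturer gives where probes may match further sequences, as do the brightest of Atp9a and the second of Atp8a1.

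Atp11a, whose product returns phosphatidylserine and phosphatidylethanolamine to the inner leaflet of the plasma membrane, read 6.84 and 7.10 on the arrays labelled Gfi1fl/fl, against 6.43 and 6.89 on the WT arrays. The groups overlapped, with a difference of 0.31 ± 0.27 (SE), which was 0.08 without WT replicate 1 and 0.54 without WT replicate 2. Its dimmer probe set differed by 0.07 ± 0.13.

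Of the endosomal and Golgi members, none was called. Atp11b, an endosomal flippase gene, read 9.57 and 9.54 on the arrays labelled Gfi1fl/fl, against 9.83 and 9.73 on the WT arrays. The groups did not overlap, but the difference of -0.23 ± 0.16 (SE) was not called. Atp9b, a gene of the trans-Golgi network, read 7.67 and 7.39 against 7.65 and 7.81, with overlap and a difference of -0.20 ± 0.24. Its dimmer probe set read 3.61 and 3.09 against 3.47 and 3.21, a difference of 0.01 ± 0.20. Atp9a, its endosomal relative, read 3.53 and 3.69 on the arrays labelled Gfi1fl/fl, against 4.34 and 3.68 on the WT arrays. This difference of -0.40 ± 0.24 came from WT replicate 1: without it the value was -0.07. The other 2 Atp9a probe sets differed by -0.03 ± 0.18 and -0.08 ± 0.13.

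**Figure D2:**
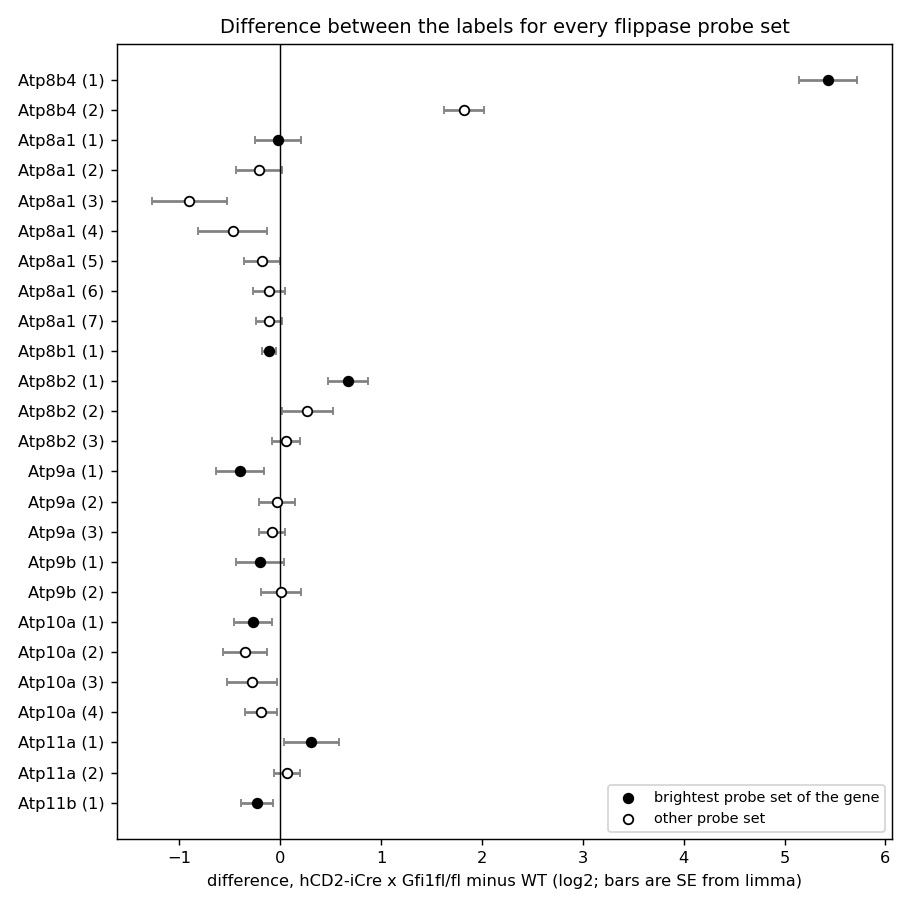
Each row is 1 flippase probe set and the x axis gives the log2 difference, arrays labelled Gfi1fl/fl minus WT arrays, with bars for the SE from limma; filled points are the brightest probe set of a gene. Atp8b4 lies at 5.43 and 1.82, and the other 23 probe sets lie between -0.90 and 0.67.

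Counted over genes, 0 of the 8 members other than Atp8b4 were called by limma at an adjusted p of 0.05, in a comparison that called 0.942% of all genes as higher and 0.170% as lower under the label Gfi1fl/fl. At an unadjusted p under 0.05 there was 1, Atp8b2, beside 8.29% of all genes in the same fit. An ordinary t statistic called 0 of the 8 (2 at an unadjusted p under 0.05). It called 0 of all 17097 genes as well, so its calls do not set the members apart from other genes. Over probe sets, 0 of 23 were called, against 0.664% of all probe sets called as higher and 0.102% as lower. By limma 2 of the 23 had an unadjusted p under 0.05, and the share of all probe sets at that level was not taken. Without overlap between the groups were 2 of the 23 with higher values and 10 with lower ones, 5 of these 10 of Atp8a1. Of all probe sets 16.8% and 17.9% did so. The groups did not overlap for 1 of the 8 genes with higher values and 3 with lower ones, while 16.0% and 18.5% of all genes did so. Of the 8 differences, 2 lay above 0 and 6 below, with a median of -0.16, and over all genes 44.6% lay above 0 with a median of -0.02. With the contrast known when the members were listed, nothing is read from these counts.

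Other genes of membrane lipid asymmetry were taken from lists. Of the remaining P4-ATPase and CDC50 genes, 6 were measured and none was called (limma, adjusted p of at least 0.909, and 0 at an unadjusted p under 0.05). Atp10d read 6.20 and 6.90 on the arrays labelled Gfi1fl/fl, against 6.50 and 5.79 on the WT arrays, with overlap and a difference of 0.41 ± 0.35 (SE). Atp8b3, a testis-enriched member, differed by -0.19 at signals between 3.19 and 3.55. Of the 6 genes, 3 lay below the array medians on all arrays, among them Tmem30b and Tmem30c, which encode relatives of the Tmem30a product.

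Scramblases work against flippases by letting lipids move both ways. Of 16 measured genes of scramblases and their partners, 1 rose, none fell and 15 did not pass, with a median difference of -0.06 beside -0.02 over all genes. The one that rose was Xkr6, a gene of the XK-related family. It read 3.62 and 3.62 on the arrays labelled Gfi1fl/fl, against 2.89 and 2.83 on the WT arrays, a 1.70-fold ratio (limma, adjusted p = 0.0228). All values lay near or below the array medians. The call was lost without WT replicate 1 (adjusted p = 0.120), without WT replicate 2 (0.157), with the mean of the 2 Xkr6 probe sets (0.108), with the replicate number as a block (0.0570), without the intensity trend of the fit (0.0894) and with an ordinary t statistic (0.532).

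Ano6, which encodes the calcium-activated scramblase of the plasma membrane, read 10.58 and 10.45 on the arrays labelled Gfi1fl/fl, against 10.96 and 11.01 on the WT arrays. The groups did not overlap, but the difference of -0.47 was not called (limma, adjusted p = 0.268). Xkr8, the scramblase gene that caspases activate in apoptosis, lay below the array medians on all 4 arrays, and differed by 0.09. Its partner genes Bsg and Nptn differed by -0.40 and 0.00, with adjusted p of 0.796 and 1.00 (limma).

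The other lists held no called gene by limma. Among 11 measured lipid exporters the largest difference was 1.15 for Abcc1, a multidrug exporter, which read 6.12 and 5.58 on the arrays labelled Gfi1fl/fl, against 4.42 and 4.97 on the WT arrays (adjusted p = 0.224). The next was -0.49 for Abcb4, a phosphatidylcholine exporter (adjusted p = 0.723). Of 9 measured genes of phosphatidylserine and phosphatidylethanolamine synthesis, Cept1 and Chka had the largest differences, 0.37 and -0.31 (adjusted p = 0.806 and 0.930). Of 11 measured phosphatidylserine receptors and bridging proteins, which serve mainly in phagocytes, 10 lay below the medians on all arrays, and the largest differences were -0.16 for Tyro3 and 0.15 for Mertk. Among 7 endosomal and Golgi partners, Ap1g1 and Dop1a differed by -0.21 and 0.15.

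Of 16 measured P-type ATPases outside the flippase family, none was called either. Atp2a3, a calcium pump of the endoplasmic reticulum in blood cells, read 8.78 and 8.53 on the arrays labelled Gfi1fl/fl, against 9.55 and 9.51 on the WT arrays. The groups did not overlap and its difference of -0.87 had an adjusted p of 0.113 (limma). The next largest in this list was 0.29, for Atp13a1, a pump of the endoplasmic reticulum. Over the 7 lists 76 genes were measured, and Xkr6 alone was called, beside 0.942% of all genes called as higher and 0.170% as lower. By limma 4 of the 76 had an unadjusted p under 0.05, beside 8.29% of all genes.

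**Figure D3:**
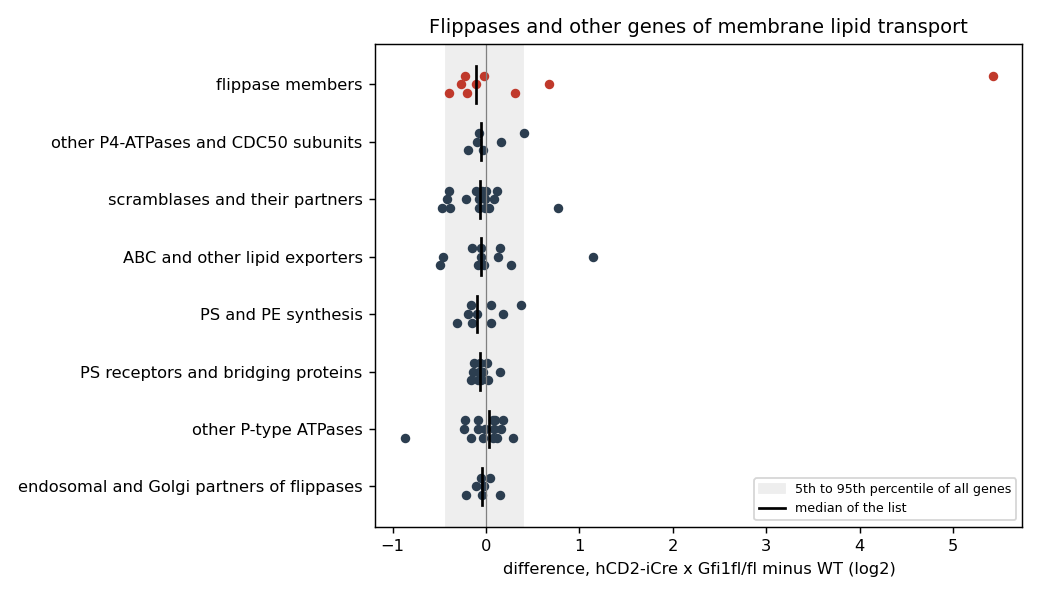
Each point is 1 gene of a list, and the x axis gives its log2 difference, arrays labelled Gfi1fl/fl minus WT arrays; black bars are list medians, the grey band spans the 5th to 95th percentile of all genes, and PS and PE are phosphatidylserine and phosphatidylethanolamine. The flippase genes other than Atp8b4 (5.43) lie between -0.40 and 0.67, as most points of the other lists do.

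The genes beside the members on their chromosomes were examined by their order in the RefSeq table. The 3 measured genes on either side of Atp8b4 were Fam227b, Fgf7, Dtwd1, Slc27a2, Hdc and Gabpb1, and their differences lay between -0.15 and 0.30 with none called (limma, adjusted p of at least 0.916). Dtwd1, the nearest on 1 side, read 7.28 and 6.90 on the arrays labelled Gfi1fl/fl, against 7.04 and 7.45 on the WT arrays. Slc27a2, a fatty acid transporter gene and the nearest on the other side, read 3.73 and 3.23 against 3.32 and 3.20. The large difference of Atp8b4 was thus not seen in these 6 genes.

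Over the 54 neighbours of all 9 measured members, 1 was called as higher and 0 as lower, beside 0.942% and 0.170% of all genes. The called neighbour was Il6ra, the interleukin-6 receptor gene next to Atp8b2, which is named here after its value was seen. Il6ra read 7.72 and 7.46 on the arrays labelled Gfi1fl/fl, against 3.26 and 3.56 on the WT arrays, and rose by 4.19 on the log2 scale, an 18.2-fold ratio of signals (limma, adjusted p = 0.000906). The WT signals lay near the array medians, so this too is no ratio of transcript amounts. Its second probe set differed by 0.37 ± 0.17 (SE), and the mean of its probe sets by 2.28 (adjusted p = 0.00347). On the other side of Atp8b2, Hax1 differed by -0.26.

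The 5 genes whose values over the 4 arrays, each less its own mean, lay nearest to those of Atp8b4 were Klf2, Rgmb, Chd7, Grhl3 and Cers4. Their Euclidean distances were 0.62, 0.76, 0.78, 0.80 and 1.06 on the log2 scale. Klf2, a transcription factor of quiescent and migrating T cells, read 9.66 and 9.97 on the arrays labelled Gfi1fl/fl, against 4.70 and 4.53 on the WT arrays. Cers4, a ceramide synthase gene, read 9.06 and 7.90 against 3.27 and 3.94. By the brightest probe set all 5 were high on both arrays of one label and low on both of the other. Over 4 arrays this likeness is thus chiefly a likeness in the size of the difference. Further probe sets of Rgmb differed by 3.01, 1.86 and 0.49, those of Cers4 by 3.27 and 2.04, and that of Chd7 by 6.4.

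**Figure D4:**
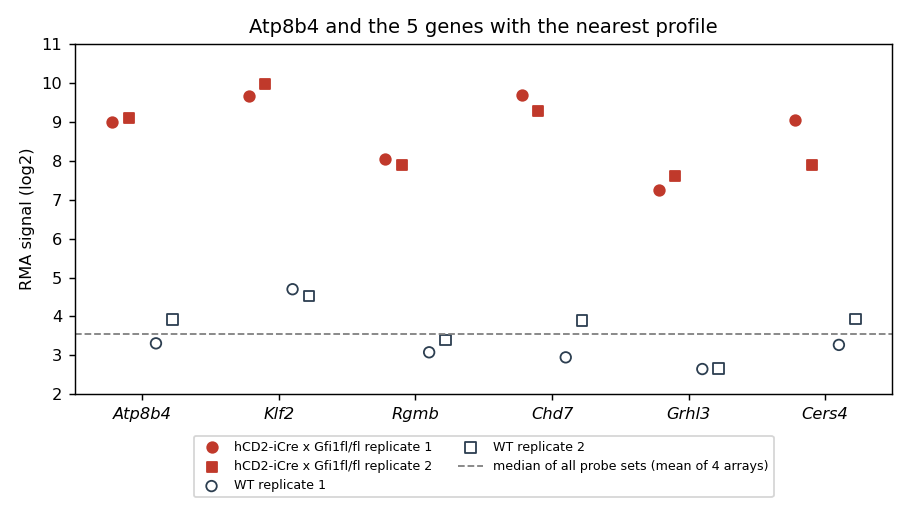
The y axis gives the RMA signal (log2) of Atp8b4 and of the 5 genes with the nearest profile, with 1 symbol per array; filled symbols are arrays labelled Gfi1fl/fl, open symbols WT arrays, and the dashed line is the median of all probe sets. For each gene both filled symbols lie far above both open ones, as for Klf2 with 9.66 and 9.97 against 4.70 and 4.53.

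The arrays also differed in features that run beside these results. The mean of 17 cell cycle genes was 8.12 and 10.01 on replicates 1 and 2 labelled Gfi1fl/fl, against 8.90 and 9.53 on the WT replicates. The labels overlapped in this mean. Of 64 measured markers of other cells none was called by limma, and 41 lay below the medians of all 4 arrays.

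Markers of gamma-delta T cells, NK cells and innate lymphocytes, 13 in number, had a mean of 4.24 and 4.22 on the arrays labelled Gfi1fl/fl, against 3.98 and 3.92 on the WT arrays. In that list 5 had an unadjusted p under 0.05 (limma), all with higher values under the label Gfi1fl/fl. Over all genes 8.29% had such a p, in either direction. Differences in the list lay above 0 for 10 and below 0 for 3. The groups did not overlap for 6 of these markers with higher values and 2 with lower ones, beside 16.0% and 18.5% of all genes. Blk and Nkg7 had the largest differences, 1.24 and 0.99. The mean of 13 epithelial and stromal markers was 3.89 and 3.76 against 3.74 and 3.57, with 2 at an unadjusted p under 0.05 in opposite directions: Epcam read 8.63 and 7.69 against 6.89 and 6.06, a difference of 1.68, and the keratin gene Krt8 differed by -0.30 at signals below the medians. Both means moved with the label, and their part in the Atp8b4 difference was not tested. The 19 myeloid and dendritic markers had means of 3.41 and 3.45 on the arrays labelled Gfi1fl/fl, against 3.51 and 3.28 on the WT arrays, and the largest difference was 0.51, for Lyz2. For 9 B cell markers the means were 3.65 and 3.49 against 3.77 and 3.61, and Pax5 and Ebf1 lay below the medians on all arrays. Cd79b had the largest difference of that list, with 7.41 and 6.28 on the arrays labelled Gfi1fl/fl, against 8.26 and 7.88 on the WT arrays (-1.23, limma, adjusted p = 0.347). For 10 erythroid and platelet markers they were 4.16 and 4.23 against 4.20 and 4.38. Car2 read 6.74 and 5.69 on the arrays labelled Gfi1fl/fl, against 8.51 and 7.66 on the WT arrays, the largest difference of the 64 markers (-1.87, limma, adjusted p = 0.140). The globin gene Hba-a1 read 8.72 and 10.45 against 7.35 and 10.17, with overlap. The part of these genes in the Atp8b4 difference was not tested. Of 15 double-positive markers 1 fell, Dntt, by 0.69 on the log2 scale (limma, adjusted p = 0.0413). The call was lost without the intensity trend of the fit (limma, adjusted p = 0.149) and with the probe sets of each gene averaged (0.0815). The Dntt difference was -0.77 without WT replicate 1 and -0.61 without WT replicate 2. The mean of these 15 markers was 11.35 and 11.23 on the arrays labelled Gfi1fl/fl, against 11.43 and 11.52 on the WT arrays. Their differences lay below 0 for 13 and above 0 for 2. The groups did not overlap for 6 with lower values and 2 with higher ones, beside 18.5% and 16.0% of all genes. By limma 3 had an unadjusted p under 0.05, beside 8.29% of all genes: Dntt, Ets2 (-0.68, adjusted p = 0.0528) and Themis (-0.46, adjusted p = 0.327). This mean too moved with the label, and its part was not tested. In sorted bulk samples, a change in the share of cells that express a gene and a change in RNA per cell cannot be told apart.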

How the data were processed

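RNA of sorted thymocytes was hybridised to Affymetrix 3' expression arrays, 1 array per sample. The deposited values are log2 RMA signals per probe set, made with RMA in Expression Console 1.1 from Affymetrix, per the submitters' processing notes. RMA compresses the fold changes of dim probe sets, and no detection calls were used here. Of 45037 probe sets, 28898 had exactly 1 gene symbol in the platform annotation, 551 several and 15588 none.

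For the contrast of the labels, limma 3.58.1 (R 4.3.3; lmFit, then eBayes with its trend option) was run without a filter or covariate. One fit covered all 45037 probe sets, and gave the SE printed for members. The other covered 17097 genes, each represented by the brightest of its probe sets on average, and gave the counts over genes and the values of other genes. Calls used a two-sided Benjamini-Hochberg adjusted p of 0.05 over each fit. The procedure was tested on simulated data. These were drawn under the model of the fit, with planted differences larger than those of the members other than Atp8b4. The test therefore does not bear on how well differences of the size of those members are called. With 2 arrays per label the number of arrays limits the precision.

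The members and lists were chosen with earlier results of these data known. Named genes were all members, Gfi1 and Foxo1, called list members or else the 2 with the largest differences, the 5 profiles nearest to Atp8b4, and the neighbours of Atp8b4; further genes are named to show what a list held. Promoter motifs were chosen after the values were seen. The alternatives left out each array, the dimmest 30% or 50% of probe sets, or the trend; they added a block for the replicate number, a robust prior, centring on medians or renewed quantile scaling; or they used an ordinary t statistic or averaged a gene's probe sets. Plots used matplotlib 3.10.9 (Python 3.11.15).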

Additional observations from a re-analysis of the deposited data

How the results depend on the processing

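Of the 8 members other than Atp8b4, 0 were called under the 13 alternatives, and 0 of their probe sets under those that keep probe sets apart; Atp8b1 was left out by the filters on dim probe sets. The difference of Atp8b4 stayed between 3.63 and 5.74, the lowest with the mean of its 2 probe sets. Atp8a1, by its brightest probe set, was the only member gene whose difference changed sign (0.08 at most). The 1 called gene of the 7 lists, Xkr6, was lost with the replicate block (0 genes called, adjusted p = 0.0570), without the intensity trend (0), with the ordinary t statistic (0) and with the mean of all probe sets (0). With the dimmest 50% left out, 0 list genes were called because that filter removed Xkr6 before the test. Leaving out 1 array gave between 0 and 2 called list genes and between 1 and 2 called neighbours, and the ordinary t statistic called 0 neighbours. The further calls were Atp2a3 without replicate 1 labelled Gfi1fl/fl, Abcc1 without replicate 2 of that label, and the Atp11a neighbour Mcf2l without either array of that label or without WT replicate 1. Over all genes 190 were called, 103 to 475 when 1 array was left out, and 0 with the ordinary t statistic (1219 at an unadjusted p under 0.05). The replicate numbers are not said to mark shared animals or days. Deviations of same-numbered arrays from their group means correlated at 0.301 across genes. The paired fit with the replicate block called 183 genes, 157 as higher and 26 as lower. It left the called members at 0 and the called neighbours at 1, and took the called list genes from 1 to 0. Signals near or below the array medians, as for Atp8b1 and WT Atp8b4, limit what can be seen at the low end.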
